A study of Mus musculus with 3 samples.

Results

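The genes described here encode the proteins that bundle, anchor and cap the actin filaments of hair cell stereocilia. They are *Espn*, *Espnl*, *Fscn1*, *Fscn2*, *Pls1*, *Pls3*, *Triobp*, *Xirp2*, *Eps8* and *Eps8l2*. They were chosen by name for their known roles and not by their values, though with earlier results of these data known. They are 10 of the 32285 genes counted. The libraries came from the cochleae of C57/B6 mice at P14 (postnatal day 14) and at P28 (day 28). Each library pooled the dissociated tissue of 7 mice (14 cochleae), and the study has 1 P14 library and 2 P28 libraries (replicates 1 and 2). No genotype or treatment differed between the ages and cells were not sorted. The tissue came mostly from the upper basal to the apical turns according to the study's methods, so the basal turn is largely missing.

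A stereocilium is a thin cell projection filled with parallel actin filaments, and rows of them of graded height form the bundle that senses sound. Crosslinkers such as espin, the plastins and the fascins tie the filaments together, TRIOBP packs them into the rootlet that anchors each stereocilium in the cell body, and EPS8 and EPS8L2 sit near the filament ends at the tips. Inner hair cells (IHCs) pass the signal on to the auditory nerve, while outer hair cells (OHCs) amplify the vibration.

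*Espn* lies at chr4:152120331-152152371 (minus strand), *Espnl* at chr1:91322075-91348306 (plus strand), *Fscn1* at chr5:142960343-142973185 (plus strand) and *Fscn2* at chr11:120361534-120368168 (plus strand) in GRCm38, which is mm10. *Pls3* lies on chromosome X. In the GENCODE M21 annotation *Eps8* shares its strand with the overlapping gene *Gm44106*, and *Triobp* with *Mir6956*, so reads of those stretches could belong to either gene. RefSeq start sites of that build gave promoter sequences of 300 bases for 9 of the 10 genes, 14 promoters in all, and none for *Eps8*. *Espn* was the most abundant of the 10 transcripts in hair cells, and *Espnl* the one that differed most between clusters of OHC-like cells. *Fscn1* and *Fscn2* are paralogs, and against all cells that are not hair cells *Fscn1* was lower in hair cells and *Fscn2* higher. The promoters of these 4 genes are shown for those reasons. Each runs 5′ to 3′ from 250 bases before the start site, for *Espn* the most upstream of 3 start sites, and capitals mark a match on either strand to the E-box CAGCTG or to TATAAA. Another motif, GTTGCC, was searched as well, and no motif overlaps another in these windows.
*Espn*, chr4:152152340-152152639, minus strand: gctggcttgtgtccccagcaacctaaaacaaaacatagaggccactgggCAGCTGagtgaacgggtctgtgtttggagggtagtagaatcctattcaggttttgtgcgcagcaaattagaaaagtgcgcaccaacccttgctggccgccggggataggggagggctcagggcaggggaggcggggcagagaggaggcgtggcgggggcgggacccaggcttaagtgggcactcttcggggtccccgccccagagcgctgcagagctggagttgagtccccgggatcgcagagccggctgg
*Espnl*, chr1:91321825-91322124, plus strand: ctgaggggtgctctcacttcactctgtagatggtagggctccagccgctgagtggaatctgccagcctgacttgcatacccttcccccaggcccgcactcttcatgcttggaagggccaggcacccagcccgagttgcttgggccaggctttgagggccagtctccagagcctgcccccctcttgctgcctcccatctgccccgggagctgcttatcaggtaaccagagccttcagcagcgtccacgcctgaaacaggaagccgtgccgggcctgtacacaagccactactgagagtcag
*Fscn1*, chr5:142960105-142960404, plus strand: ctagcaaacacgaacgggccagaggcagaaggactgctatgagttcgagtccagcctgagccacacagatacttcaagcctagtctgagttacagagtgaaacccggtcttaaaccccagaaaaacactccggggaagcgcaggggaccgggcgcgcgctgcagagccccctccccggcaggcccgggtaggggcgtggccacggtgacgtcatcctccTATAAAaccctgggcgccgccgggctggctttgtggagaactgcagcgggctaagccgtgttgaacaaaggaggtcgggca
*Fscn2*, chr11:120361284-120361583, plus strand: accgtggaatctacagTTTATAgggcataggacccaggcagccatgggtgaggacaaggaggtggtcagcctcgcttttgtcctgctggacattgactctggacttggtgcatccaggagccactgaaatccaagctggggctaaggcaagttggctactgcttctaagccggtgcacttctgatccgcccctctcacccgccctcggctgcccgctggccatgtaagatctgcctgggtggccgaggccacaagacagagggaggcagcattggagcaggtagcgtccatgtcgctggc
The motif CAGCTG was in 3 of the 14 promoters (2 of *Espn* and 1 of *Pls3*) and in 16.3% of 32851 promoters of that length. TATAAA was in 2 of the 14 and in 13.6% of all. It began 31 bases before the start site of *Fscn1*, while in *Fscn2* it lay on the other strand and reads TTTATA. The motif GTTGCC was in none of the 14 and in 12.5% of all.

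After the limits on genes (200 to 6000) and mitochondrial UMIs (at most 15%), 1662, 5651 and 7065 barcodes were kept in the P14 library and P28 replicates 1 and 2, with medians of 2477, 2421 and 2037 UMIs (unique molecular identifiers, 1 per captured RNA molecule). Clusters were built without these genes and named from fixed marker lists, and the OHC-like clusters met the bar on 8 of 8 markers, the P14 IHC-like cluster on 8 of 8 and the P28 IHC-like clusters on 7 of 8. There were 277, 365 and 284 OHC-like cells and 60, 113 and 76 IHC-like cells. Median depth differed between them, with 6510, 5244 and 3752.5 UMIs in OHC-like cells but 1025.5 in the P14 IHC-like cells against 9310.0 and 8007.5 at P28. At a finer clustering (resolution 2) the P14 IHC-like cells split into 42 cells with a median of 832 UMIs and 18 with 9994. Deiters' and pillar cell-like (DC/PC-like) cells were found only at P28 (74 and 42). The P14 cluster named inner phalangeal and border cell-like (IPhC/IB-like, 74 cells) had *Tectb*, *Fabp3*, *Rbp7*, *Otogl* and *Slitrk6* among its leading genes. Of these, *Tectb*, *Fabp3*, *Rbp7* and *Otogl* also led the P28 DC/PC-like cluster, and *Otogl* and *Slitrk6* the P28 IPhC/IB-like cluster. Of the kept barcodes, between 4 and 10 were shared by a pair of libraries. Levels are summed UMIs of a class in a library as CPM, which scales every sum to the same total,, with exact Poisson intervals that cover counting error only, and 1 UMI is counted per 3′ end whatever the gene's length.

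**Figure D1:**
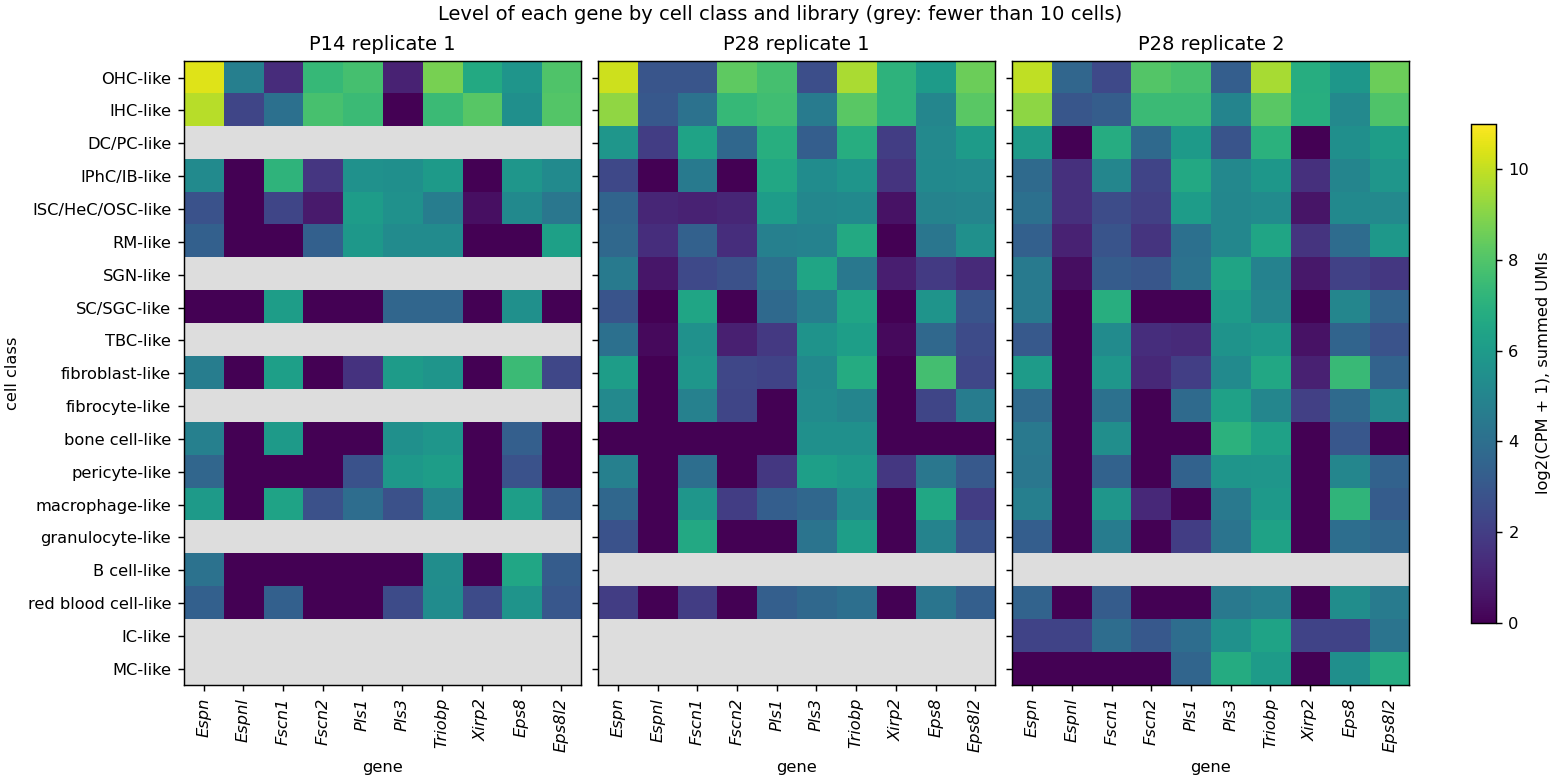
Level of each gene, as log2(CPM + 1), in each cell class (rows) of each library (panels), with grey where a class had fewer than 10 cells. *Espn* is brightest in the OHC-like and IHC-like rows of every panel, *Xirp2* and *Fscn2* are bright in those rows alone, and the *Eps8* column is brightest in fibroblast-like cells.

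Among the crosslinkers, *Espn*, which encodes the bundling protein espin, was the most abundant of the 10 transcripts in both hair cell classes of every library. Its level in OHC-like cells was 1427 CPM in the P14 library and 1138 and 994 CPM in P28 replicates 1 and 2, the order used for all values here. IHC-like cells held 899, 576 and 563 CPM, so the OHC-like level was higher in each library and the intervals did not overlap. All cells that are not hair cells had 15.3, 21.4 and 20.8 CPM. *Espn* supplied 53.5% of the UMIs of the 10 genes in OHC-like cells at P14 and 37.6% and 35.4% at P28, and 43.1%, 33.1% and 34.0% in IHC-like cells. Outside hair cells its highest P28 level was in fibroblast-like cells, at 69.6 and 63.8 CPM, with the DC/PC-like interval overlapping it.

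*Espnl*, which encodes the espin-like protein, was far less abundant. OHC-like cells had 26.1 CPM at P14 (49 UMIs) and 6.48 and 11.5 CPM at P28 (16 UMIs each). IHC-like cells had 3.96, 7.22 and 6.73 CPM from 1, 7 and 4 UMIs, and the intervals of the hair cell classes overlapped in each library. Cells that are not hair cells had 0, 0.57 and 0.61 CPM. *Espnl* did not pass the filter on low counts between the hair cell classes and was not tested there.

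*Fscn2*, which encodes fascin 2, a crosslinker of photoreceptors and hair cells, was close to absent outside hair cells. OHC-like cells had 162, 309.8 and 265 CPM of it. The IHC-like levels were 222, 164 and 180.0 CPM, and cells that are not hair cells had 1.13, 2.41 and 2.67 CPM. At P14 the intervals of the hair cell classes overlapped, and in both P28 libraries the OHC-like interval lay above the IHC-like one. Its paralog *Fscn1*, the widely expressed fascin of filopodia, was lower in both hair cell classes than in cells that are not hair cells. The sum of those cells had 30.7, 24.8 and 25.6 CPM of it. This did not hold for every class, as inner sulcus, Hensen's and outer sulcus-like cells had 3.96, 1.07 and 4.86 CPM. OHC-like cells held 1.60, 6.48 and 4.33 CPM of *Fscn1*, and IHC-like cells 15.8, 16.5 and 8.41 CPM. Its highest level was in IPhC/IB-like cells at P14 (141 CPM), in granulocyte-like cells in P28 replicate 1 (99.3 CPM, in a cluster also led by the B lineage genes *Igkc* and *Vpreb3*) and in Schwann and satellite glial cell-like cells in P28 replicate 2 (118 CPM). DC/PC-like cells had 82.8 and 112 CPM, and the first 3 classes of each library overlapped with their neighbours in this order.

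*Pls1*, which encodes plastin 1 (fimbrin), a plastin of stereocilia and microvilli, was even across hair cells. OHC-like cells had 215, 214 and 221 CPM and IHC-like cells had 178, 197 and 178 CPM, with overlapping intervals in every library. Unlike *Fscn2* and *Xirp2* it was also present in the epithelium around the hair cells. DC/PC-like cells had 118 and 62.0 CPM, IPhC/IB-like cells 46.4, 97.0 and 99.4 CPM, and cells of the inner sulcus, Hensen's and outer sulcus-like class 67.2, 66.8 and 66.9 CPM. *Pls3*, which encodes plastin 3 of many non-muscle cells, was low in OHC-like cells and less so in IHC-like cells. OHC-like cells had 1.07, 5.27 and 8.65 CPM (2, 13 and 12 UMIs). IHC-like cells had 0, 22.7 and 30.3 CPM, where a limit of 3 UMIs at P14 is 11.9 CPM. The exact interval at P14 ran up to 14.6 CPM and overlapped that of P28 replicate 1, which began at 14.2 CPM. Its highest level in a named class was 65.3 CPM in fibroblast-like cells at P14 and 87.7 CPM in spiral ganglion neuron-like cells in P28 replicate 1. In P28 replicate 2 it was 134 CPM in 53 bone cell-like cells (interval 80.4 to 208 CPM). The P28 mean was 86.0 ± 2.40 CPM in spiral ganglion neuron-like cells and 85.4 ± 5.57 CPM in clusters left unnamed (SD, n = 2).

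*Triobp*, whose long products build the stereocilia rootlets while short ones act on actin in many cells, ranked second in OHC-like cells of every library. Its level there was 426, 771 and 765 CPM, and in IHC-like cells 178, 292 and 286 CPM. The classes did not overlap in any library. Cells that are not hair cells had 36.8, 58.1 and 58.4 CPM, and *Triobp* was above 0 in every class of every library. The 3′ counts do not tell its products apart. *Xirp2*, which encodes a Xin-repeat actin-binding protein of muscle and stereocilia, stood at 102, 138 and 115 CPM in the outer class, with IHC-like levels of 285, 139 and 119 CPM. Its IHC-like level exceeded the OHC-like level beyond the intervals at P14 but not at P28. Cells that are not hair cells had 0.75, 0.52 and 0.75 CPM of *Xirp2*.

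Of the filament-end proteins, *Eps8l2* was abundant in both classes. OHC-like cells held 253, 372 and 366 CPM and IHC-like cells 261, 291 and 251 CPM, while cells that are not hair cells had 17.2, 23.8 and 24.95 CPM. *Eps8*, which encodes the capping and bundling protein of stereocilia tips, was not marked out by hair cells. OHC-like cells held 52.8, 64.0 and 55.5 CPM, IHC-like cells 43.6, 32.0 and 35.3 CPM, and all cells that are not hair cells 52.4, 46.2 and 48.0 CPM. The highest levels of *Eps8* were 179.6, 209.7 and 174 CPM in fibroblast-like cells and, at P28, 91.6 and 144 CPM in macrophage-like cells.

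**Figure D2:**
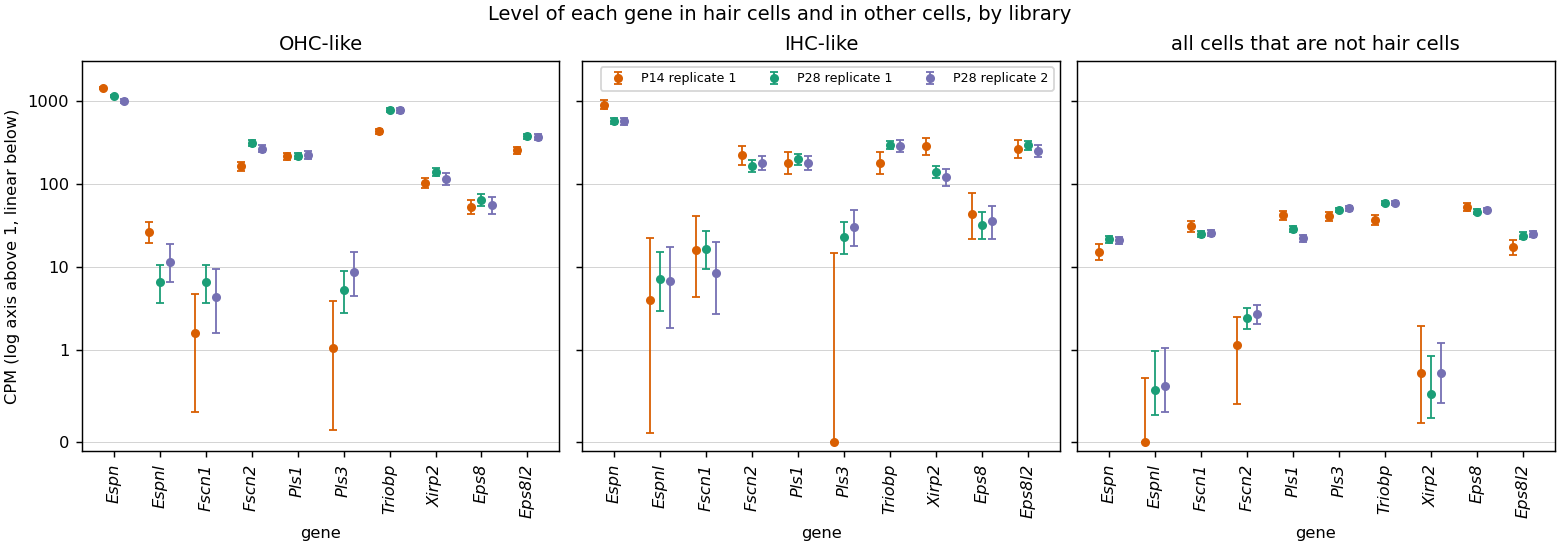
Level of each gene in CPM (log axis above 1, linear below) in OHC-like cells, IHC-like cells and all cells that are not hair cells, with 1 point per library and exact Poisson 95% intervals. *Fscn2*, *Xirp2* and *Espn* are far higher in both hair cell classes, *Eps8* is near the same level in all 3 and *Fscn1* and *Pls3* are lower in hair cells.

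To compare single cells at equal depth, each cell was thinned to 1000 UMIs, which left out 17, 2 and 0 OHC-like and 29, 14 and 4 IHC-like cells as too shallow. *Espn* was found in 75.8%, 68.0% and 64.8% of thinned OHC-like cells, and in 96.8%, 98.9% and 96.1% before thinning. In thinned IHC-like cells the shares were 74.2%, 48.5% and 48.6%. Red blood cell-like cells, taken as the background class, gave 0.98%, 0% and 1.15% (median depths of 1197.5, 3683.0 and 2567.0 UMIs before thinning). At P14, 120 of these 170 cells were in a cluster led by fibroblast genes such as *Col3a1* beside haemoglobin genes. A thinned OHC-like cell held a mean of 1.82, 2.26 and 2.15 of the 10 genes and an IHC-like cell 1.65, 1.46 and 1.49, while the means in red blood cell-like cells were 0.16, 0.05 and 0.16. Of the thinned OHC-like cells, 23.5%, 39.7% and 38.7% held 3 or more of the genes, against 16.1%, 20.2% and 18.1% of IHC-like cells.

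Against cells that are not hair cells, OHC-like cells were higher in 7 of the 10 genes, while 24.0% of the 13007 genes tested were higher, and lower in 2, while 30.1% of all were lower. The comparison used edgeR's quasi-likelihood test with a term for the library on 3 sums against 3, and adjusted p is by Benjamini-Hochberg over all genes tested. The median log2 fold change was 3.84 over the 10 genes and -0.09 over all. *Xirp2* was higher by 7.58 ± 0.29 on the log2 scale (SE, adjusted p = 0.000866 by edgeR), *Fscn2* by 6.96 ± 0.18 (0.000824) and *Espn* by 6.00 ± 0.24 (0.000917). *Espnl*, *Eps8l2*, *Triobp* and *Pls1* were higher by 4.62, 3.97, 3.72 and 2.93. Each of these 7 was higher in 3 of 3 libraries. *Pls3* (-3.27 ± 0.48) and *Fscn1* (-2.62 ± 0.48) were lower in 3 of 3. *Eps8* differed by 0.29 ± 0.18 with an adjusted p of 0.229 by edgeR, but passed without the P14 library (0.51, adjusted p = 8.56e-05) and against supporting and sulcus cells alone (0.50, adjusted p = 0.0361), and turned to -0.18 (adjusted p = 0.446) with at most 3000 genes and 15000 UMIs. Each fit without 1 library, here and below, had 2 sums against 2, so its p-values lean on the spread shared by all genes tested.

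IHC-like cells gave the same calls for each gene. 7 of the 10 were higher, against 13.3% of 12673 genes tested, and 2 were lower, against 22.5%. *Xirp2* was higher by 7.62 ± 0.31, *Fscn2* by 6.16 ± 0.34 and *Espn* by 4.88 ± 0.31 on the log2 scale (adjusted p = 7.35e-05, 9.78e-05 and 0.000146 by edgeR). *Espnl*, *Eps8l2*, *Pls1* and *Triobp* were higher by 3.48, 3.38, 2.43 and 2.07. *Fscn1* (-1.17 ± 0.31) and *Pls3* (-1.45 ± 0.44) were lower (adjusted p = 0.0282 and 0.0414 by edgeR). Neither of these passed the threshold without P28 replicate 1 (adjusted p = 0.118 and 0.15 by edgeR), nor did *Espnl* (0.149). *Fscn1* also did not pass without P28 replicate 2 (-0.88, adjusted p = 0.347 by edgeR) or with DESeq2 (adjusted p = 0.0588). Against supporting and sulcus cells alone *Fscn1* was at -0.34 and *Pls3* at -1.09 (adjusted p = 0.499 and 0.0529 by edgeR). Without the library term *Pls3* had an adjusted p of 0.083 by edgeR. *Eps8* was at -0.66 ± 0.21 (adjusted p = 0.0527 by edgeR) and passed as lower without the P14 library (-0.59, adjusted p = 0.0075). The other hair cell class was not part of the reference in either comparison.

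**Figure D3:**
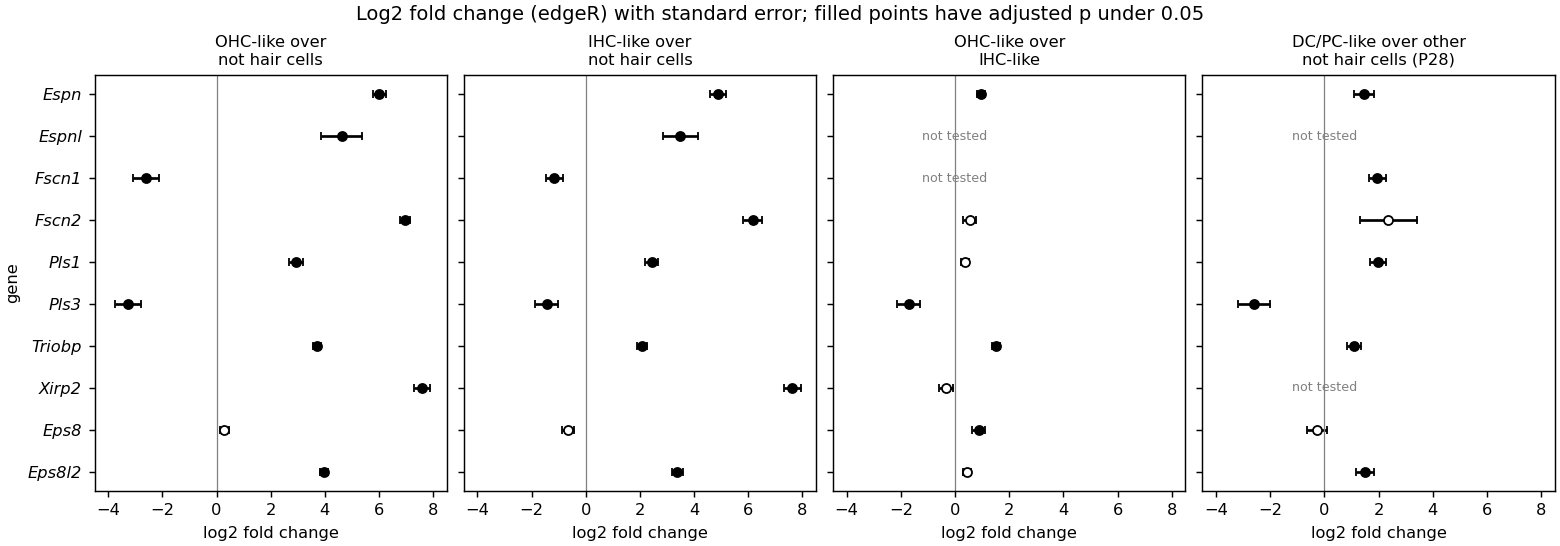
Log2 fold change of each gene (edgeR) with a standard error derived from the F statistic in 4 comparisons of classes, with filled points at an adjusted p under 0.05. The first 2 panels share their calls gene by gene, *Triobp*, *Espn* and *Eps8* lie to the right and *Pls3* to the left in the OHC-like over IHC-like panel, and *Fscn1* moves to the right side in DC/PC-like cells.

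Between the hair cell classes the differences were smaller. 8 of the 10 genes passed the filter on low counts (*Espnl* and *Fscn1* did not), 3 were higher in OHC-like cells, against 16.8% of 9500 genes tested, and 1 was lower, against 17.2%. *Triobp* was higher by 1.51 ± 0.15 and *Espn* by 0.96 ± 0.14 on the log2 scale, each in 3 of 3 libraries (adjusted p = 4.05e-05 and 0.000512 by edgeR). *Eps8* was higher by 0.87 ± 0.23 in 3 of 3 libraries (adjusted p = 0.0149 by edgeR). It did not pass with DESeq2 (adjusted p = 0.136) or without P28 replicate 1 or 2 (0.27 and 0.101 by edgeR), and it was at -0.0073 with at most 3000 genes and 15000 UMIs. *Pls3* was lower (-1.71 ± 0.42, adjusted p = 0.0111), with only 2 of 3 libraries in that direction and 0 to 22 UMIs per sum. The remaining 4 did not pass: *Fscn2* at 0.54 ± 0.24, *Eps8l2* at 0.44 ± 0.16, *Pls1* at 0.37 ± 0.15 and *Xirp2* at -0.34 ± 0.27. Calls changed with the libraries and the design. Without the P14 library 7 genes were called, and *Xirp2* stood at 0.09. *Fscn2* was among those called, at 0.88 ± 0.11 (adjusted p = 6.29e-15 by edgeR). That fit had 2 sums against 2, so its p-values lean on the spread shared by all genes tested. P14 IHC-like cells were few and mostly shallow. The 48 of 60 within 3000 genes and 15000 UMIs held 69732 of the 252424 UMIs of their sum. Without either P28 library, or without the library term, 2 were called, and *Espn* had an adjusted p of 0.0675 by edgeR without the library term.

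Of the supporting cells beside the hair cells, DC/PC-like cells were higher than the other cells that are not hair cells in 5 of the 8 genes tested, against 8.38% of 14719 genes, and lower in 1, against 14.9%. The comparison had 2 sums against 2, since the class was found only at P28. With so few sums its p-values lean on the spread shared by all genes tested, and *Pls1* itself was at 118 and 62.0 CPM in the 2 libraries. *Pls1* was higher by 1.99 ± 0.29 and *Fscn1* by 1.96 ± 0.30 on the log2 scale (adjusted p = 1.63e-10 and 1.76e-09 by edgeR), each in 2 of 2 libraries. *Eps8l2*, *Espn* and *Triobp* were higher by 1.51, 1.46 and 1.09, and *Pls3* was lower (-2.61 ± 0.59). Hair cell RNA was present in this class, as *Ocm*, the calcium buffer of OHCs, was at 520.3 and 347 CPM there. At the ratio to *Ocm* seen in hair cells, that would carry 41.1 and 24.3 CPM of *Espn*, beside the 53.2 and 62.0 CPM measured, and 0.39 and 0.16 CPM of *Fscn1*, beside 82.8 and 112 CPM. The same figures were 8.79 and 5.87 CPM for *Pls1*, 14.7 and 9.33 CPM for *Eps8l2* and 26.7 and 17.5 CPM for *Triobp*, beside 115 and 130.2 CPM measured. *Espn* did not pass without the cells of highest doublet score (0.90, adjusted p = 0.169 by edgeR), and it turned to -0.36 (adjusted p = 0.775) with at most 3000 genes and 15000 UMIs, where *Triobp* did not pass either (0.59, adjusted p = 0.179).

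IPhC/IB-like cells were higher in 2 of the 7 genes tested, *Pls1* by 1.73 ± 0.44 and *Eps8l2* by 1.08 ± 0.19 on the log2 scale (adjusted p = 0.0366 and 0.0122 by edgeR), against 10.7% of 12366 genes, and lower in 0 at that threshold, against 15.1%. None of the 5 others had an unadjusted p under 0.05. Without the P14 library 4 genes were called, *Espn* among them as lower (-1.36, adjusted p = 1.5e-05 by edgeR), and without either P28 library none was. *Fscn1* in this class was 141 CPM at P14 but 22.1 and 32.5 CPM at P28. The P14 cluster shared leading genes with the P28 DC/PC-like cluster and with the P28 IPhC/IB-like cluster. Whether the cells of the P14 cluster or age set that difference in *Fscn1* cannot be told apart.

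The nearest relatives of these proteins gave 1 further transcript that was abundant in hair cells, but it was not confined to them. *Lcp1*, which encodes plastin 2, the plastin of leukocytes, reached 377, 456 and 424 CPM among OHC-like cells and was thus above *Pls1* there in each library. IHC-like cells held 246, 219 and 205 CPM. Macrophage-like cells had 519.6, 350.3 and 286 CPM and cells that are not hair cells 59.2, 21.7 and 19.7 CPM. By edgeR *Lcp1* was higher in OHC-like cells by 3.91 ± 0.51 (adjusted p = 0.00715), in IHC-like cells by 2.72 ± 0.32 and in DC/PC-like cells by 3.57 ± 0.24 on the log2 scale, and higher in OHC-like than IHC-like cells by 1.06 ± 0.16. In OHC-like cells *Eps8l1* reached 3.73, 9.32 and 6.49 CPM and passed no test, *Fscn3* and *Xirp1* had at most 0.09 CPM in cells that are not hair cells, and *Eps8l3* had no UMI in them.

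Genes of the wider bundle apparatus were listed by role. The shares of all genes called, given above, were 24.0% higher and 30.1% lower for OHC-like cells and 13.3% and 22.5% for IHC-like cells. Of 17 genes for the bundle membrane, taper, tip complex and cuticular plate, 12 passed as higher and 1 as lower in the OHC-like sums against cells that are not hair cells, with a median log2 fold change of 2.06, and 9 were higher and 1 lower in IHC-like cells (median 1.99). Highest were the glutaredoxin-like genes *Grxcr1* (8.18) and *Grxcr2* (7.52) and the membrane phosphatase gene *Ptprq* (7.61), while the spectrin gene *Sptbn1* was lower (-1.41). Of 20 tested genes for actin, its monomer-binding proteins and filament-end proteins, 2 were higher in OHC-like cells and 12 lower, with a median of -0.72. The higher ones were *Twf2*, a twinfilin of stereocilia tips (3.46), and *Cap2* (2.43), and *Gsn* (-4.17), *Diaph2* (-3.18) and *Pfn2* (-3.08) led the lower ones. Among the general crosslinkers the alpha-actinin gene *Actn1* was higher (1.55), and 6 of 10 tested were lower, led by *Tpm4* (-3.44), *Ezr* (-3.22) and *Msn* (-3.18). In IHC-like cells 4 of 21 actin, monomer and filament-end genes were higher and 6 lower, and 5 of 10 general crosslinkers were lower. Of the bundling and capping genes 7 of 10 were higher in either comparison, so in OHC-like cells the bundle membrane list had about as high a share.

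No test was run between the ages, as P14 had 1 library, and a P14 level is called outside P28 only where its interval met neither P28 interval. In OHC-like cells 7 of the 10 genes reached 50 CPM in a library, and for 3 of these the P14 interval lay below both P28 intervals, as it did for 22.8% of 4141 genes at that level, and for 1 above, as for 20.4%. *Triobp* was at 426 CPM at P14 and at 768 ± 4.25 CPM at P28 (SD, n = 2), *Fscn2* at 162 and 288 ± 31.4 CPM and *Eps8l2* at 253 and 369 ± 3.86 CPM. *Espn* went the other way, from 1427 to 1066 ± 102 CPM. *Espnl*, below that level, also had its P14 interval above both. *Pls1* (215 and 218 ± 5.05 CPM), *Xirp2* and *Eps8* overlapped.

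In IHC-like cells 6 of the genes reached 50 CPM. The P14 interval lay above both P28 intervals for 2, against 10.8% of 4770 genes, and below both for 1, against 11.6%. *Xirp2* was at 285 CPM at P14 and 129 ± 14.1 CPM at P28, *Espn* at 899 and 569.6 ± 8.74 CPM, and *Triobp* at 178 and 289 ± 4.32 CPM. *Espn* was thus lower at P28 in both hair cell classes and *Triobp* higher, with log2 ratios of P28 over P14 of -0.42 and 0.85 in OHC-like cells and -0.66 and 0.69 in IHC-like cells (1 CPM added), beside medians of 0.06 and 0.10 over all genes at 50 CPM. *Triobp* was also higher at P28 in the sum of all cells that are not hair cells (36.8, 58.1 and 58.4 CPM, log2 ratio 0.65). Its P14 interval lay below both, and so did that of *Eps8l2* (log2 ratio 0.48). The make-up of that sum differed, as spiral ganglion neuron-like, fibrocyte-like and DC/PC-like cells were found only at P28. Within classes *Triobp* was higher at P28 in fibroblast-like cells (53.1, 109 and 95.3 CPM) but not in IPhC/IB-like cells (62.6, 52.8 and 55.7 CPM). The part of make-up in these shifts was not tested. Whether the counts of genes outside P28 differ from the shares over all genes was not tested. With at most 3000 genes and 15000 UMIs per cell, 0 of the 10 genes had a P14 interval outside P28 in IHC-like cells, and *Xirp2* was then at 186, 217 and 204 CPM. That limit left 69732, 78267 and 63782 of the 252424, 969144 and 594604 UMIs of the IHC-like sums. The intervals were wider for it, so the count of 0 cannot show that the levels did not differ. The share of UMIs from *Malat1* was 5.71%, 4.81% and 15.7% in the P14 OHC-like clusters and 1.28% and 1.03% in the P28 ones. In IHC-like clusters it was 4.24% at P14 and 0.81% and 3.57% at P28. Depth, the *Malat1* share, cell state and pool of mice differ with age here and cannot be told apart.

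**Figure D4:**
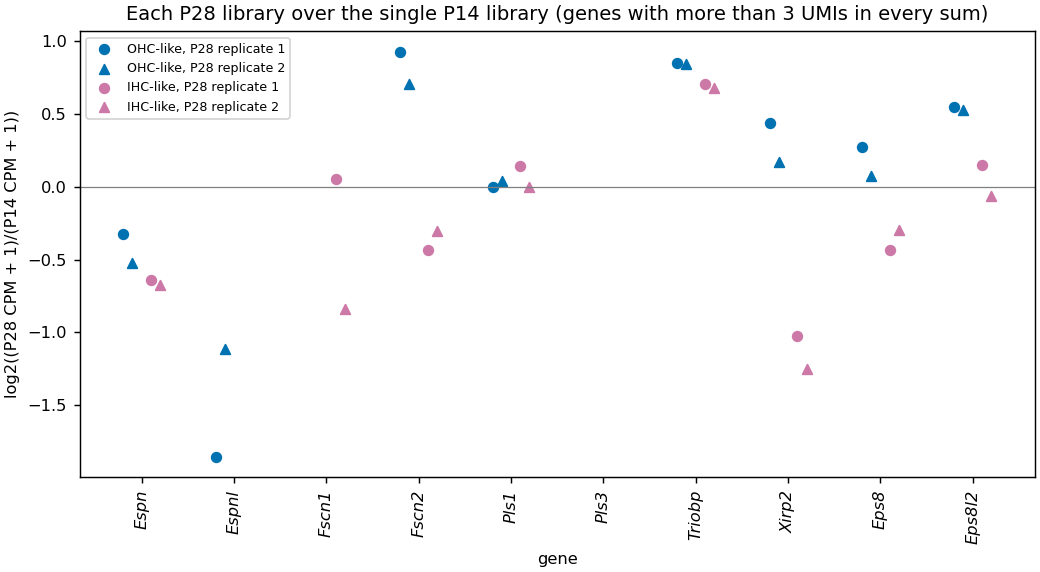
Log2 ratio of each P28 library over the P14 library, with 1 CPM added, for genes with more than 3 UMIs in every sum of the class, in OHC-like (blue) and IHC-like (pink) cells. *Triobp* lies above 0 and *Espn* below 0 in both classes, while *Fscn2*, *Xirp2* and *Eps8* lie above 0 in OHC-like cells and below 0 in IHC-like cells.

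OHC-like cells of the P14 library fell into 3 clusters that differed in *Espnl* and *Xirp2*, a pattern chosen after the values were seen and given without a test. The largest (196 cells, median depth 5971 UMIs) had 2.37 CPM of *Espnl* (interval 0.49 to 6.93) from 3 UMIs, and the next (48 cells, 10543 UMIs) had 80.6 CPM (58.8 to 108) from 45 UMIs. So 45 of the 49 *Espnl* UMIs of P14 OHC-like cells were in those 48 cells, of which 17 held any. *Xirp2* was at 45.9 CPM (34.8 to 59.3) in the first and 231 CPM (193 to 275) in the other. Of 3744 genes at 50 CPM in either cluster, *Espnl* ranked 3 and *Xirp2* 14 by the log2 ratio of the smaller over the larger cluster (4.60 and 2.31, 1 CPM added). Above *Espnl* ranked *Laptm5*, a gene of leukocytes (1.58 and 159 CPM), and *Ecrg4* (1.58 and 82.4 CPM). *Calb1*, which encodes the calcium buffer calbindin, was at 142 and 854 CPM in these clusters, and *Otof*, which encodes otoferlin of the IHC synapse, at 22.1 and 181 CPM. The other bundle genes were close between these clusters, with *Espn* at 1452 and 1399 CPM, *Fscn2* at 164 and 170.1 CPM and *Pls1* at 214 and 226 CPM, while *Eps8l2* was at 269 and 192 CPM with intervals that did not overlap. With at most 3000 genes and 15000 UMIs per cell, P14 OHC-like cells had 7.43 CPM of *Espnl* and 57.0 CPM of *Xirp2*. At resolution 2 they fell into clusters of 149, 93 and 35 cells, so the cluster of 48 cells was not kept. Clusters with over 5% of UMIs from *Malat1* and under 5% from ribosomal protein genes were called nucleus-like. The cluster of 149 cells met this (5.90% and 4.96%), and the cluster of 196 cells did not (5.71% and 5.32%).

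The third P14 cluster (33 cells, median 942 UMIs) was nucleus-like, with 15.7% of its UMIs from *Malat1*, and had 37.4 CPM of *Fscn2* (2 UMIs). At P28 neither of the OHC-like clusters held such an *Espnl* level. In P28 replicate 1 *Espnl* was at 6.78 CPM in 306 cells and 5.72 CPM in 59 cells, and in replicate 2 at 14.2 CPM in 230 cells and 6.38 CPM in 54 cells. The smaller P28 cluster, again the deeper one (11209 and 8455.5 UMIs against 5090.0 and 3517.0), had higher levels of *Xirp2* (170.0 and 149 against 125 and 97.1 CPM), *Triobp* (880.2 and 887 against 728 and 703 CPM) and *Espn* (1353 and 1168 against 1053 and 905 CPM), with intervals that overlapped for *Xirp2* only. Depth moved with cluster in all 3 libraries, and its part in these levels was not tested.

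**Figure D5:**
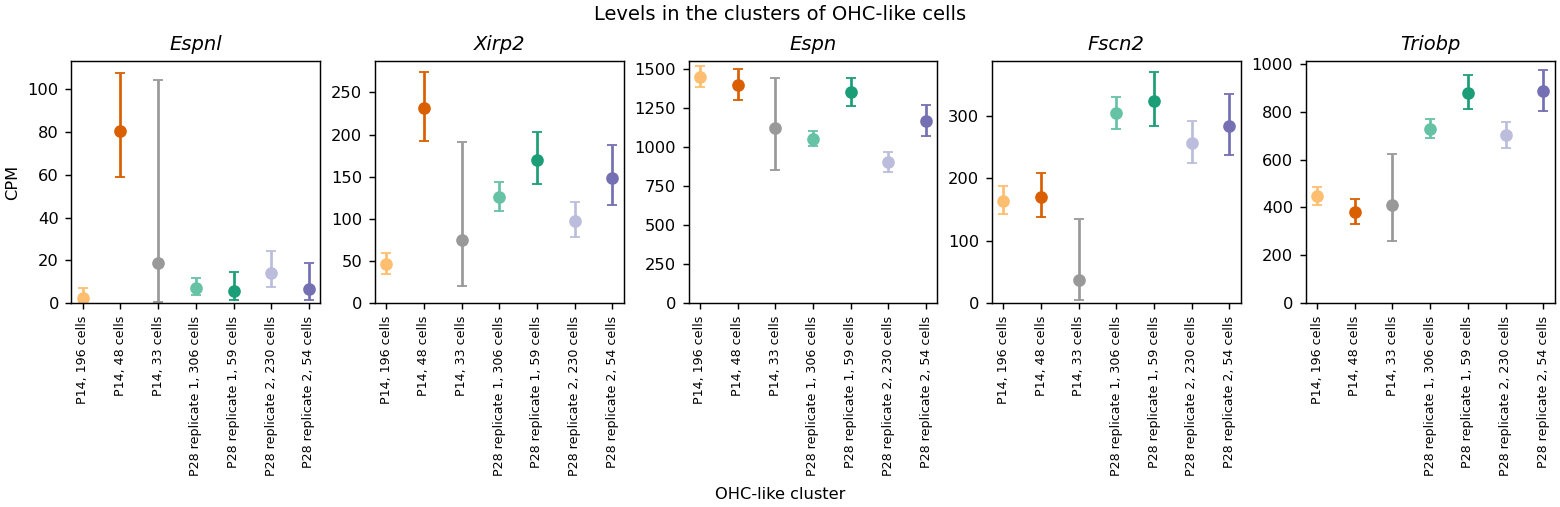
Level in CPM of 5 genes in each cluster of OHC-like cells, with exact Poisson 95% intervals; the 33-cell P14 cluster is nucleus-like. *Espnl* and *Xirp2* are highest in the P14 cluster of 48 cells, *Espn* and *Fscn2* do not separate it from the cluster of 196 cells, and *Triobp* is higher in each P28 cluster than in the P14 ones.

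The likeness of patterns was ranked by Pearson correlation of log2(CPM + 10) over 45 sums of 19 named classes, among 10237 genes at 50 CPM in a sum. The sums share libraries, so these values are descriptions. *Xirp2* had *Lrrc52* and *Kcna10* among its nearest (r = 0.983 and 0.980), and *Fscn2* nearest *Tomt*, *Kcna10* and *Gm34653* (0.980, 0.979 and 0.977). *Espn* was nearest *Lhfpl5*, *Myo15* and *Pou4f3* (0.949, 0.946 and 0.945), which encode a transduction complex protein, a stereocilia motor and a hair cell transcription factor. *Pls1* was nearest *Minar2*, *Muc15* and *Cgn* (0.927, 0.916 and 0.915), and *Eps8l2* nearest *Cgn*, *Stard10* and *2010300C02Rik* (0.928, 0.922 and 0.902), so both had the tight junction gene *Cgn* among their nearest. *Espnl* was nearest *Ankfn1*, *Plscr5* and *0610033M10Rik* (0.908, 0.908 and 0.888), and *Triobp* nearest *Nhlrc2*, *Gm43260* and *Gm27239* (0.903, 0.879 and 0.856). Lower values were found for *Pls3* (*Fat1*, *Tspan7* and *Maged1*, 0.842, 0.772 and 0.771), *Fscn1* (*Vim*, *S100a6* and *Ptpre*, 0.715, 0.670 and 0.654) and *Eps8* (*Ramp3*, *Clec1a* and *Unc13c*, 0.634, 0.607 and 0.602). Within the 10 genes the most alike pairs were *Fscn2* and *Xirp2* (0.966) and *Espn* and *Fscn2* (0.935), and the least alike *Fscn2* and *Pls3* (-0.461).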

How the data were processed

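Single-cell RNA-seq (10x 3′ v3.1) was made from 1 P14 and 2 P28 libraries. The authors aligned reads and counted UMIs per gene and barcode with Cell Ranger (6.0.1 in the submitters' processing notes, 5.0.1 in the file header) on mm10. The annotation release is not given in the sources used here, and 32158 of 32285 gene IDs matched GENCODE M21. The deposited values are raw UMI counts. Totals were 10125255, 35485894 and 37530956 UMIs over 2513, 11948 and 18196 barcodes, which were limited to 200 to 6000 genes and at most 15% mitochondrial UMIs.

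Each age was clustered with Seurat 5.3.0 (2000 variable genes, 30 components, resolution 1), with all 64 listed genes left out of the variable genes. Scrublet marked 0.18%, 0% and 0.014% of barcodes, which is too few to have worked, so none was removed, and an alternative left out the 8% of highest score. UMIs were summed per class and library for classes of at least 10 cells, and CPM was computed from these counts. Sums were compared with edgeR 4.0.16 (quasi-likelihood, TMM, filterByExpr, R 4.3.3) with the library as a term, at a Benjamini-Hochberg adjusted p under 0.05. Both sums of a library come from the same mice, and their deviations from the class means correlated at 0.206 to 0.609. P-values measure only how the difference between the classes varied over these libraries, which also differ in age. Intervals are exact 95% intervals and cover counting error only, and a count of 0 was given a limit of 3 UMIs. Standard errors of edgeR fold changes were derived as the absolute log2 fold change over the square root of the F statistic. Scripts were tested on simulated data.

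The genes, lists and alternatives were chosen with earlier results of these data known. All 10 genes were named, with their paralogs, the 3 genes in each direction of each other list with the largest log2 fold change in OHC-like cells among those past the threshold in the same direction in all libraries, and the 3 genes most alike in pattern. Some genes that this rule names are not reported here. Genes of the P14 OHC-like clusters were named after their values were seen. Alternatives were DESeq2 1.42.0, its size factors in edgeR, other count filters, no library term, each library left out, limits of 3000 genes and 15000 UMIs, no nucleus-like clusters, resolution 2, a reference of supporting and sulcus cells, and a CPM total without mitochondrial, ribosomal protein and haemoglobin genes.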

Additional observations from a re-analysis of the deposited data

Results flagged for a closer look

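The log2 ratio of P28 over P14 had opposite signs in the hair cell classes for 3 genes, in both P28 libraries. These are genes with more than 3 UMIs in every sum of both classes. The ratio was 0.82 in OHC-like and -0.37 in IHC-like cells for *Fscn2*, 0.31 and -1.13 for *Xirp2*, and 0.18 and -0.36 for *Eps8*. *Espnl*, with 1 UMI in IHC-like cells at P14, also had opposite signs (-1.44 and 0.68). The difference between the classes was not tested. Of the 3 genes, only *Fscn2* in OHC-like cells and *Xirp2* in IHC-like cells had a P14 interval outside both P28 intervals. With at most 3000 genes and 15000 UMIs the negative IHC-like sign was not seen in both P28 libraries for any of these 3 genes. *Xirp2* was at 186 CPM in the P14 library beside 217 and 204 CPM in the P28 libraries. *Fscn2* was at 258 CPM beside 243 and 329 CPM, and *Eps8* at 71.7 CPM beside 51.1 and 78.4 CPM. These levels rest on just 48, 39 and 20 cells, with totals of 69732, 78267 and 63782 UMIs. Each P14 interval then met a P28 interval, so the values cannot decide the sign.

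Barcodes over 15% mitochondrial UMIs, which no comparison used, held 787 UMIs of the 10 genes in the P14 library (498 barcodes), 4989 in P28 replicate 1 (5986 barcodes) and 5363 in P28 replicate 2 (10778 barcodes). The summed level of the 10 genes in them was 1184, 609.8 and 399 CPM, beside 912, 592 and 442 CPM in the kept barcodes. *Eps8l2* was at 244, 101 and 73.5 CPM in them and at 85.0, 69.2 and 51.0 CPM in the kept barcodes.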

How the results depend on the processing

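The number of the 10 genes called was 9, 9, 4, 6 and 2 in OHC-like cells, IHC-like cells, OHC-like over IHC-like cells, DC/PC-like cells and IPhC/IB-like cells, of 7040, 4533, 3226, 3422 and 3193 genes called in all. With at least 10 UMIs in every sum, which tests fewer genes, 4, 5 and 1 of the 10 were called in OHC-like, IHC-like and IPhC/IB-like cells. In all, 4426, 1856, 1678, 1259 and 1251 genes were called in the 5 comparisons, of 8585, 4382, 4297, 2688 and 5922 tested. That filter left *Espnl*, *Fscn1*, *Fscn2*, *Pls3* and *Xirp2* untested in OHC-like and IHC-like cells. None of the other bundle genes lost its call in these 2 comparisons. DESeq2 called 2 of the 10 and 2033 genes between the hair cell classes and 2083 genes in DC/PC-like cells. With no filter 7 of the 10 were called between the hair cell classes. Without the replicate block (the library term) 2 of the 10 and 1722 genes were called there and 1982 genes in IPhC/IB-like cells, and the count of calls stayed within 1.5 times elsewhere. With at most 3000 genes and 15000 UMIs the counts were 2 and 914 between the hair cell classes, 2279 genes in DC/PC-like cells, 4 of the 10 in IPhC/IB-like cells, and 0 in place of 3 for the ages in IHC-like cells. The IHC-like sums then held 69732, 78267 and 63782 UMIs, so their intervals were wider. That limit reversed *Eps8* (-0.18 in OHC-like cells, -0.0073 in OHC-like over IHC-like cells), *Eps8l2* (-0.11, same comparison), *Espn* in DC/PC-like cells (-0.36) and *Triobp* in IPhC/IB-like cells (-0.47). *Triobp* in IPhC/IB-like cells was also reversed with at least 10 UMIs (-0.0091) and without high doublet scores (-0.14). The causes were not tested.

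Leaving out 1 library gave 9 to 10 of the 10 genes and 2681 to 10455 genes in OHC-like cells, 6 to 10 and 1773 to 7776 in IHC-like cells, 2 to 7 and 1512 to 4920 between the hair cell classes, and 0 to 4 and 514 to 7180 in IPhC/IB-like cells, with the lowest all-gene count without P28 replicate 1 and the highest without the P14 library each time. Over these settings *Xirp2* between the hair cell classes ranged from -0.64 to 0.088, and in IPhC/IB-like cells *Espn* from -1.36 to 0.29 and *Triobp* from -0.031 to 0.34. For the ages it gave 6 in place of 5 in OHC-like cells and 3 to 4 in IHC-like cells. In DC/PC-like cells it left no residual degrees of freedom and gave no value. Of the fold changes of single genes under the alternatives, 442 kept direction and call, 18 passed newly, 21 no longer passed and 10 reversed.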
